A study of Canis lupus familiaris with 4 samples.

Results

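The S100 genes encode small calcium-binding proteins, and their RNA was measured on arrays in stem-like cells of a pair of canine mammary cancer lines. Of 10 listed symbols, 9 had probes whose gene name or description carried the symbol: S100A4, S100A6, S100A8, S100A9, S100A10, S100A11, S100A13, S100A14 and S100A16. S100A1 had none and is not reported further. These 9 genes were read by 13 of the 43603 probes that were not controls. All 13 probes were among the 28692 that passed the filter on dim probes, which asked that a line and culture show the probe well above background on both of its arrays. The genes were chosen from the difference between the lines in single culture and from the co-culture ratios. Those values are given here as a description, and calls or p-values printed for them are no support for that choice.

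The lines were P114 and CMT-U27, both derived from canine mammary cancer. Per the labels, cells positive for Sca1, EpCAM and CD44 were sorted from each line and grown for 3 days with tumour-associated macrophages (co-culture) or by themselves (single culture), in the same medium. Each line had 2 two-colour arrays, whose numbers follow the record order, and every array carried the co-culture of a line in one dye and its single culture in the other. Co-culture was in Cy3 on P114 replicate 1 and CMT-U27 replicate 2 and in Cy5 on the other two, so all directions rest on the labelled dyes. Each group is a single cell line, and the source of the macrophages and the separation of the cells after co-culture are not given in the sources used here. The arrays are called biological replicates without saying that the extracts were separate, and p-values then measure only a spread that may be technical.

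S100 proteins work mostly as dimers. In most of them, calcium bound by the paired EF-hand loops opens a surface that holds target proteins, among them annexins, myosin and p53. Several S100 proteins are also released and act on the receptors AGER (RAGE) and TLR4. In mammary tumours they are known for S100A4, which binds non-muscle myosin and goes with cell movement and metastasis, and for S100A8 and S100A9, the paired subunits of calprotectin that fill neutrophils and monocytes and also appear in stressed epithelium. S100A10 and S100A11 are partners of annexins, S100A14 belongs to the epithelial members of the family, and S100A16 is widely expressed.

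Probes of 7 of the genes lay together on chromosome 7 of the assembly CanFam3.1, in a stretch of 125.4 kb from chr7:43441874 to chr7:43567287. In order they were S100A13, S100A14, S100A16, S100A4, S100A6, S100A8 and S100A9. S100A10 and S100A11 lay apart from them on chromosome 17, in a stretch of 36.3 kb between positions 60984205 and 61020482. The S100A4 probe (chr7:43495951-43496010, plus strand) and the nearest S100A6 probe were 6.5 kb apart. The probes of S100A4 and probes 2 and 3 of S100A6 contain the letters AATAAA, the usual signal for polyadenylation, as do 8.67% of all probes, searched on the probe strand. Probes 2 and 3 of S100A6 share a run of 48 bases and are therefore not separate measurements of the gene. S100A6 probe 1 was placed over 389 bases although it is 60 bases long, so it is not contiguous in the genome. Exons and untranslated regions were not annotated here, since no annotation of that assembly was used.

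The probes of S100A8 and S100A9 are shown because these genes encode the subunits of 1 protein complex. Capitals mark the letters AACTTNGANGAGTTC, a stretch of the coding sequence that ends the canonical EF-hand loop. It is the window of 15 bases with the most letters shared by the S100A8 probe and S100A9 probe 1 (13, with N where they differ), and occurs on either strand in 3 of the 43603 probes (0.00688%), which are the 3 shown.
S100A8 (chr7:43541449-43541508, plus strand): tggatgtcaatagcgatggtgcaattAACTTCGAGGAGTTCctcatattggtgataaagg
S100A9 probe 1 (chr7:43567198-43567257, minus strand): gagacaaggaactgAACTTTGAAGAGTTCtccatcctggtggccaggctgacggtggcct
S100A9 probe 2 (chr7:43567228-43567287, minus strand): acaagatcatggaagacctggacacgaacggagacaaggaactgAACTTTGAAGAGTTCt
The 2 S100A9 probes overlap by 30 bases, in which the marked stretch lies. The probe of S100A14, the epithelial gene with the third clear line difference, is given whole and with no part marked.
S100A14 (chr7:43445735-43445794, plus strand): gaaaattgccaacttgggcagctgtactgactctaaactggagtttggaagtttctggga

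Signals are normalized log2 values of a dye channel, and a difference of 1 is a doubling. Levels cannot be set against each other between probes. On P114 replicate 1, 89.4% of Cy3 and 91.7% of Cy5 spots were well above background, against 57.9% to 65.7% in the channels of the other 3 arrays, so results are also given without that array. Both P114 arrays were read in 1 scan and both CMT-U27 arrays in another, so line and scan cannot be told apart. No spot of a member was marked as uneven or saturated. Of the sorted proteins, EPCAM was above background in all 8 channels, and its RNA was 5.99-fold lower in P114 than in CMT-U27 in co-culture (adjusted p = 0.000884, limma). CD44 was above background in all 8 channels too.

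**Figure D1:**
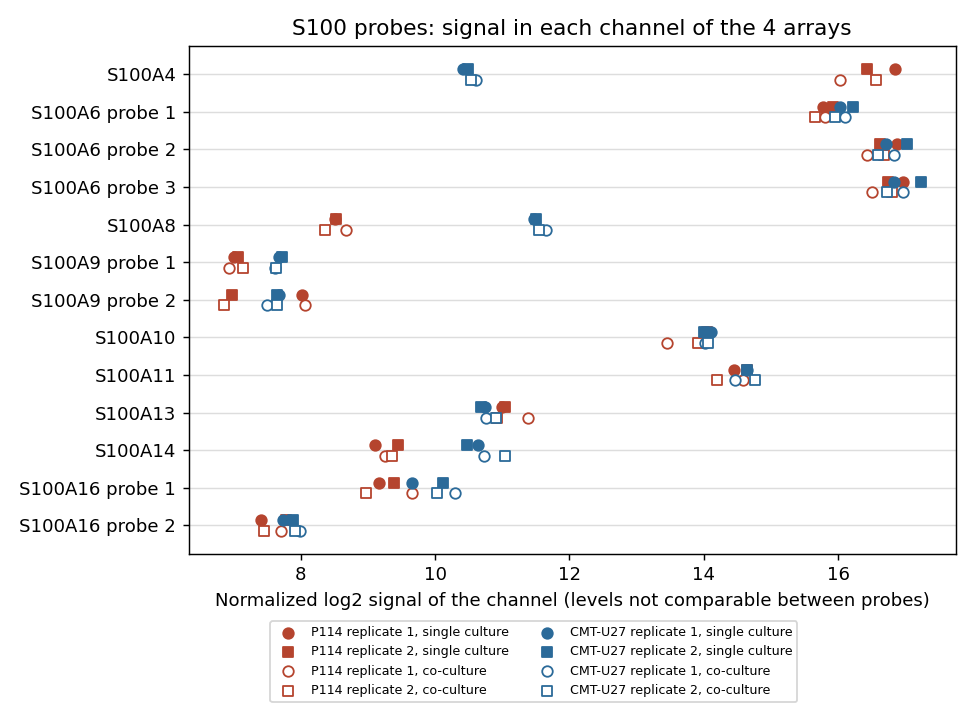
Normalized log2 signal (x axis) of each S100 probe (y axis) in the 8 channels of the 4 arrays, with P114 in red, CMT-U27 in blue, filled marks for single culture, open marks for co-culture, circles for replicate 1 and squares for replicate 2. S100A4 lies above 16 in all P114 channels and below 11 in all CMT-U27 channels, S100A8 and S100A14 lie lower in P114, and the marks of S100A6 and S100A11 lie within 1 log2 unit of each other across the lines.

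The lines differed most at S100A4, S100A8 and S100A14. S100A4 was higher in P114 and the others were lower there, in both cultures, while S100A6, S100A10, S100A11 and S100A13 differed between the line means by less than 0.5 log2 units. In single culture 1 of the 9 genes was called higher and 2 lower in P114 at an adjusted p under 0.05 (limma separate-channel fit, Benjamini-Hochberg over 28692 probes, brightest probe per gene). That contrast chose the genes, and 15.2% of all tested probes were called in it, 7.12% higher and 8.03% lower. In the co-culture channels the count was again 1 higher and 2 lower, where 15.3% of probes were called, 6.72% higher and 8.58% lower. By the probe of median rank per gene, 4 genes were called in single culture and 3 in co-culture. The co-culture channels come from the same arrays and the same lines as the single-culture ones. Their line difference equals the single-culture difference plus the co-culture ratio of P114 minus that of CMT-U27. Their p-values are therefore no independent support for the choice of genes. Without a normalization between arrays, no probe was called in either culture (0 of 28692), although S100A4 kept its size, at 6.34 log2 units in single culture and 5.87 in co-culture (adjusted p = 0.419 and 0.464, limma).

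S100A4, the myosin-binding member linked to metastasis, read 16.85 and 16.43 in single culture on P114 replicates 1 and 2, and 10.41 and 10.49 on CMT-U27 replicates 1 and 2. In co-culture it read 16.03 and 16.56 in P114 and 10.61 and 10.54 in CMT-U27. All 4 P114 channels lay far above all 4 CMT-U27 channels, by 5.42 log2 units at the nearest in co-culture. The difference was 6.19 log2 units in single culture, or 73-fold. In co-culture it was 5.72 ± 0.49 log2 units (SE, n = 2 arrays per line), or 52.8-fold with a 95% interval of 22.7 to 122 (adjusted p = 0.00182, limma). This was rank 14 by size among 28692 probes, and rank 6 among those higher in P114. Without P114 replicate 1 the co-culture difference was 5.95 log2 units (adjusted p = 8.31e-06, limma). Fits without a P114 array called far more probes in co-culture, 15015 of 28700 without replicate 1 and 17022 of 28692 without replicate 2, and calls made only there are read against that. S100A4 was well above background in CMT-U27 too, so that line held a low level of it rather than only a bound.

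S100A8, a calprotectin subunit, read 8.51 and 8.53 in single culture and 8.67 and 8.36 in co-culture on P114 replicates 1 and 2. On the CMT-U27 arrays it read 11.47 and 11.5 in single culture and 11.65 and 11.54 in co-culture. No P114 channel reached a CMT-U27 channel, and the SD of the 2 arrays of a line and culture was 0.017 to 0.22. In single culture S100A8 was 7.82-fold lower in P114. In co-culture the difference was -3.08 ± 0.31 log2 units (SE, n = 2 arrays per line), 8.47-fold lower in P114 with a 95% interval of 4.97 to 14.4 (adjusted p = 0.00297, limma). Without P114 replicate 1 it was -3.27 (adjusted p = 1.27e-05, limma).

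S100A9, the other subunit, was dim in both lines. Its probe 1 read 7.01 and 7.06 in single culture and 6.93 and 7.14 in co-culture in P114, against 7.68 and 7.72, then 7.61 and 7.63, in CMT-U27. These groups did not overlap. The difference on probe 1 was -0.66 in single culture, where it was called (adjusted p = 0.0409, limma). That contrast chose the genes, and the count by brightest probe leaves this call out, since probe 2 was the brighter. In co-culture the difference on probe 1 was -0.59 ± 0.15 log2 units (SE, n = 2 arrays per line) and missed the threshold (adjusted p = 0.0578, limma). Probe 2 did not repeat this on P114 replicate 1, where it read 8.01 in single culture and 8.06 in co-culture, above the CMT-U27 values of 7.5 to 7.68. On P114 replicate 2 it read 6.97 and 6.85, below them and not well above background. Its co-culture difference was -0.12 log2 units (95% interval -1.01 to 0.77), -0.68 without P114 replicate 1 and 0.44 without P114 replicate 2, so 1 array set its sign. The size for this dim gene also depended on the signal used. With the scanner software's processed signals, probe 1 stood at -2.18 in single culture and -1.95 in co-culture, and probe 2 at -2.19 and -1.76, none of them called (adjusted p = 0.165 to 0.649, limma). Without background correction probe 1 was called in co-culture at -1.04 (adjusted p = 0.0204, limma). It was also called there in 5 other fits: with quantile normalization, without the dye term, without either P114 array and on the channels of co-culture alone. On probe 1 the co-culture channel of P114 replicate 2 was also not well above background.

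S100A14, an epithelial member whose canonical EF-hand has lost residues needed to hold calcium, read 9.1 and 9.44 in single culture and 9.26 and 9.35 in co-culture in P114. In CMT-U27 it read 10.64 and 10.47 in single culture and 10.73 and 11.04 in co-culture. All P114 channels lay below all CMT-U27 channels, by 1.03 log2 units or more. The difference was 2.44-fold in single culture. In co-culture it was -1.58 ± 0.20 log2 units (SE, n = 2 arrays per line), 2.99-fold lower in P114 with a 95% interval of 2.14 to 4.19 (adjusted p = 0.00571, limma), and -1.42 without P114 replicate 1.

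S100A16, a widely expressed member that binds calcium weakly, lay next to S100A14 and had 2 probes. Probe 1 read 9.16, 9.39, 9.65 and 8.97 in the P114 channels and 9.66, 10.12, 10.3 and 10.03 in the CMT-U27 channels, in the order of replicates in single culture and then in co-culture. P114 lay below CMT-U27 within each culture, although its highest channel nearly touched the lowest of CMT-U27. The co-culture difference of -0.86 log2 units had a 95% interval of -3.28 to 1.56 (adjusted p = 0.625, limma), and that of probe 2 was -0.37 (-1.64 to 0.90). In co-culture probe 1 was called at -1.38 when P114 replicate 1 was left out, at -0.34 when P114 replicate 2 was, at -1.22 when CMT-U27 replicate 2 was, and also when the channels of 1 culture were fitted alone (adjusted p = 0.047 in co-culture, limma). S100A13, which helps release FGF1 from cells, was the only other gene higher in P114. It read 11 and 11.04 in single culture and 11.39 and 10.92 in co-culture in P114, against 10.74 and 10.69, then 10.75 and 10.9, in CMT-U27. The channels of the lines nearly met in co-culture, where the difference was 0.33 log2 units (95% interval -0.24 to 0.90, adjusted p = 0.417, limma). It was called at 0.51 without P114 replicate 2.

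S100A6 (calcyclin), S100A10 and S100A11 did not pass the threshold between the lines with all 4 arrays. The brightest S100A6 probe, probe 3, read 16.97, 16.74, 16.51 and 16.8 in the P114 channels and 16.84, 17.23, 16.96 and 16.73 in the CMT-U27 channels, and the lines overlapped in both cultures. Probe 2, which shares most of its bases, overlapped as well, while the separate probe 1 read 15.65 to 15.93 in P114 and 15.96 to 16.22 in CMT-U27 without overlap. In co-culture the difference was -0.30 log2 units on probe 1 (95% interval -1.31 to 0.70), -0.16 on probe 2 (-0.46 to 0.15) and -0.19 on probe 3 (-0.53 to 0.15), none past the threshold. Without P114 replicate 1, probe 1 was called at -0.47. The intervals of probes 2 and 3 leave room for a difference of up to 1.45-fold in the direction of CMT-U27.

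S100A10, the partner of annexin A2, read 14.03 and 14.05 in single culture in P114 and 14.11 and 14.01 in CMT-U27, which overlapped. In co-culture it read 13.46 and 13.92 in P114 and 14.02 and 14.07 in CMT-U27. The co-culture difference was -0.36 log2 units (95% interval -1.30 to 0.58, adjusted p = 0.595, limma). Its lowest channel was the co-culture of P114 replicate 1, and the difference was -0.09 without that array and -0.63 without P114 replicate 2, where it was called (adjusted p = 0.00158, limma). S100A11, which binds annexin A1, read 14.45, 14.64, 14.59 and 14.2 in P114 and 14.65, 14.65, 14.47 and 14.76 in CMT-U27. Its co-culture groups overlapped, with a difference of -0.22 log2 units (95% interval -0.75 to 0.31), called at -0.34 without P114 replicate 1. Over all 13 probes the lines did not overlap on 8 in single culture and on 9 in co-culture, while 71% and 66.2% of all tested probes did not overlap.

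**Figure D2:**
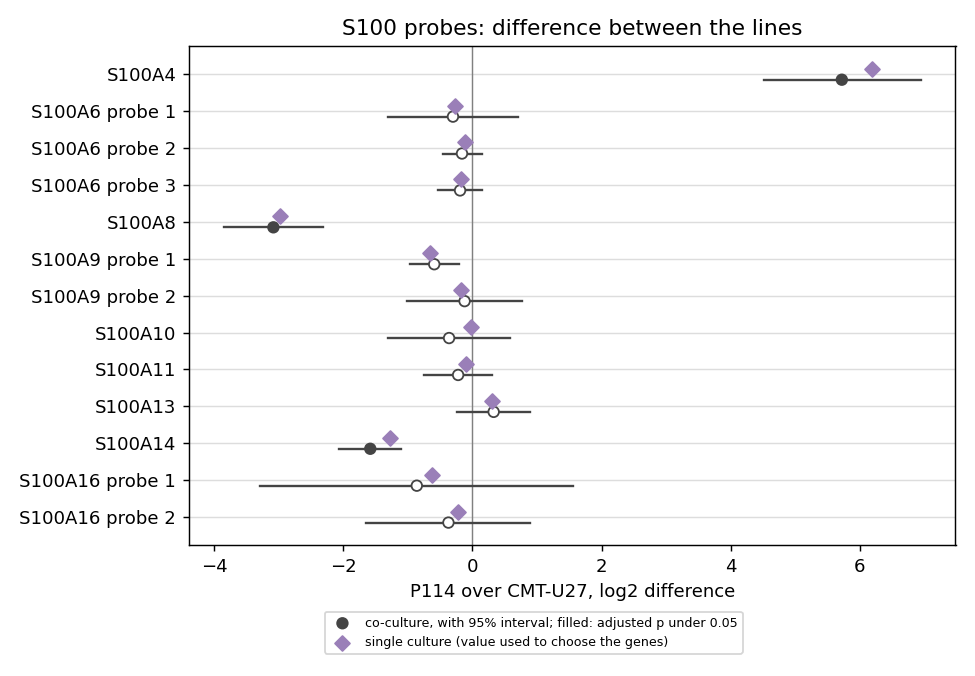
Difference between P114 and CMT-U27 (x axis, log2, positive where P114 is higher) for each S100 probe (y axis), with diamonds for single culture, circles for co-culture, bars for the 95% interval of the co-culture difference and filled circles for an adjusted p under 0.05. S100A4 stands at 5.72 in co-culture, S100A8 at -3.08 and S100A14 at -1.58, and the other intervals include 0 except that of S100A9 probe 1.

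Along the chromosome 7 stretch S100A14, S100A2, S100A4 and S100A8 passed the threshold in co-culture. The signs of the other genes there rest on differences that did not pass. From the S100A13 probe, S100A13 (0.33 in co-culture) and S100A14 (-1.58) were 3.9 kb apart, and S100A4 (5.72) stood between genes with far smaller differences. S100A3, known from the hair cuticle, lay at 50.2 kb, just before S100A4 at 54.1 kb, and differed by 0.40 log2 units (adjusted p = 0.308, limma), and S100A5 lay behind it and differed by 0.39 (adjusted p = 0.268, limma). S100A2, a nuclear member of epithelial cells, was lower in P114 on both of its probes, by -0.93 and -1.0 log2 units (adjusted p = 0.0111 and 0.0107, limma). S100A12, a ligand of AGER that lies between S100A8 and S100A9, differed by -0.85 (adjusted p = 0.0629, limma). Among other S100 genes, 6 of 11 listed were tested, with 0 called higher and 1 lower, S100A2. Of all tested probes 6.72% were called higher and 8.58% lower in P114 in co-culture. The median difference of these other S100 genes was 0.02, against -0.03 over all probes. The median over the 9 member genes was -0.22.

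**Figure D3:**
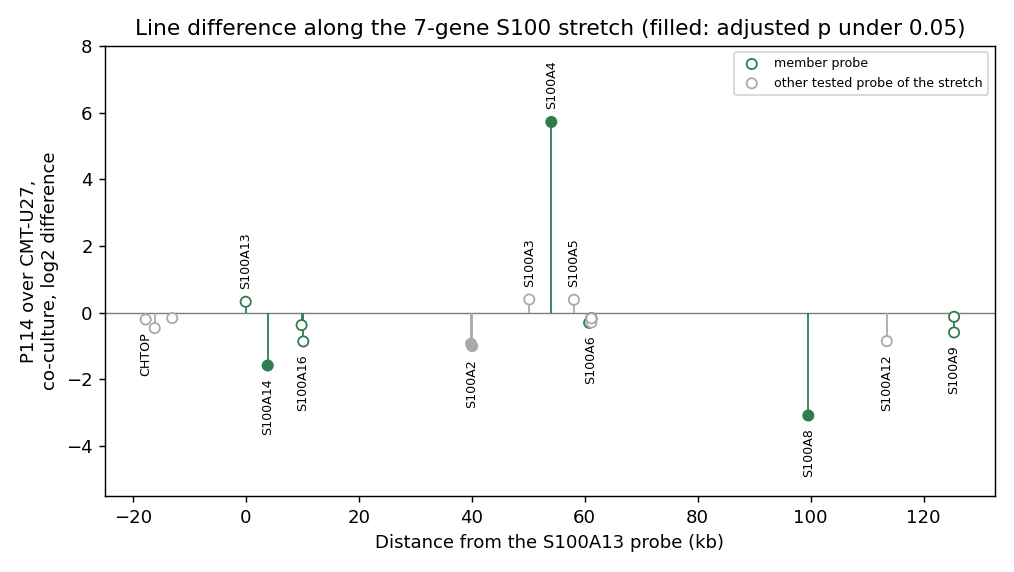
Difference between P114 and CMT-U27 in co-culture (y axis, log2) for the tested probes near the 7 S100 genes of chromosome 7, by distance in kb from the S100A13 probe (x axis), with member probes in green, other probes in grey and filled marks for an adjusted p under 0.05. S100A4 rises to 5.72 at 54.1 kb between S100A3 and S100A5, and S100A8 falls to -3.08 at 99.6 kb.

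Of 21 listed partners and receptors of S100 proteins, 18 were tested in the co-culture channels, and 3 were higher and 3 lower in P114, with a median difference of -0.05. Of all tested probes 15.3% were called in those channels, 6.72% higher and 8.58% lower in P114, and the counts here are read against that. The largest was ALCAM, an adhesion molecule and receptor reported for S100B, at 4.31 ± 0.34 log2 units (SE, n = 2 arrays per line), 19.9-fold higher in P114 (adjusted p = 0.00139, limma). Next came ANXA5, a calcium-dependent annexin, at 1.62, and MDM2, the ubiquitin ligase of p53, at 1.22, both higher in P114 (adjusted p = 0.00197 and 0.00546, limma). PLAT, the tissue plasminogen activator, was lower in P114 at -1.12 (adjusted p = 0.0386, limma). ANXA2, the annexin held by S100A10, differed by -0.27 (adjusted p = 0.74, limma). Of 21 listed genes in or around the epidermal differentiation complex, a gene cluster, 5 were tested and 1 was lower in P114, RPTN, at -1.50 (adjusted p = 0.0494, limma).

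S100A4 had the widest range of the member genes over the 4 groups, 6.19 log2 units. By Euclidean distance over the 8 channels, each probe centred on its mean, its nearest genes were VIM, the intermediate filament protein of mesenchymal cells, at 0.58, LIPA, a lysosomal lipase, at 0.65, and TMEFF2, a transmembrane protein, at 0.77. The median distance over all tested probes was 8.49. VIM differed between the lines by 5.80 log2 units in single culture and 5.59 in co-culture, LIPA by 5.81 and 5.82, and TMEFF2 by 5.63 and 5.47. The distance picks genes whose line difference is close to that of S100A4, so the line differences of these genes follow from how they were picked. The values are descriptions over 8 channels of 4 arrays, which share their arrays and lines.

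Most epithelial and sort markers were lower in P114, while few or no genes of the other cell type lists were called. Of all tested probes 15.3% were called in co-culture, 6.72% higher and 8.58% lower in P114. Of 11 tested epithelial and sort markers, 8 were lower and 0 higher in P114 in co-culture, with a median difference of -1.91. KRT19 stood at -4.38, KRT15 at -3.56 and EPCAM at -2.58, and CD44 at 1.41 did not pass (adjusted p = 0.118, limma). Their mean level was 9.79 to 9.97 in the P114 channels and 11.64 to 11.84 in those of CMT-U27, and all were above background in every channel. Of 8 fibroblast markers 1 was higher in P114, COL1A2, at 2.54, and their mean level was 8.21 to 8.43 in P114 and 7.83 to 7.88 in CMT-U27. Of 4 tested neutrophil markers 1 was lower in P114, LTF, which encodes lactoferrin, at -2.98, with 1 of the 2 P114 arrays well above background. Of 4 tested endothelial markers 1 was lower, KDR at -0.90, again with 1 of the 2 P114 arrays above background. LTF and KDR passed the filter on dim probes only through CMT-U27, so their being lower in P114 is partly set by that filter. Their sizes are set against a dim P114 signal, 6.97 for both in co-culture. Of 4 tested lymphocyte markers 0 were called in either direction. Their part in the S100 differences was not tested, and fewer cells of a type and less RNA per cell cannot be told apart in such samples.

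After loess, co-culture with macrophages went with no consistent direction in the S100 genes. With median centring in its place, described below, the member probes stood at 0.15 to 1.62 in CMT-U27, where most tested probes rose. No probe at all passed the threshold for the co-culture ratio in P114 or in CMT-U27 (0% of 28692, limma). None passed for the difference between the lines either, taken as CMT-U27 minus P114. In that order, 1758, 928 and 821 had an unadjusted p under 0.05 (limma). A share of 0.05 of the probes would fall there without any effect, so these counts are not read as a response. The ratios chose the genes and are given per array, as log2 of co-culture over single culture. On both P114 arrays 1 of 13 probes kept its sign, that of S100A10, as did 43.3% of all tested probes. On both CMT-U27 arrays 7 of 13 did, as did 50.7% of all, and on all 4 arrays 0 of 13 did, against 14.1%. Across probes the ratios of the 2 P114 arrays correlated at -0.149 and those of the CMT-U27 arrays at 0.0529 (Pearson), values that describe the arrays.

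S100A4 stood at -0.82 and 0.14 on P114 replicates 1 and 2 and at 0.20 and 0.05 on CMT-U27 replicates 1 and 2. Only P114 replicate 1 was far from 0, and the P114 mean was -0.34 ± 0.67 (SD, n = 2). S100A10 stood at -0.57 and -0.13 in P114 and at -0.09 and 0.07 in CMT-U27, again lowest on P114 replicate 1, with a P114 mean of -0.35 ± 0.31 (SD, n = 2). S100A8 stood at 0.16, -0.18, 0.18 and 0.04, and S100A9 within 0.18 of 0 on each array and probe. The calprotectin pair, which macrophages also make, thus moved by less than 0.2 log2 units on every array after loess. With processed signals the CMT-U27 means of S100A9 were -0.35 on probe 1 and -0.44 on probe 2, against -0.08 and -0.10, and with median centring that of S100A8 was 1.47.

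S100A14 stood at 0.16 and -0.09 in P114 and at 0.09 and 0.57 in CMT-U27, with a CMT-U27 mean of 0.33 ± 0.34 (SD, n = 2). S100A16 probe 1 stood at 0.49 and -0.42 in P114 and at 0.64 and -0.09 in CMT-U27, so the arrays of a line went opposite ways. S100A13 stood at 0.38 and -0.12, then 0.02 and 0.21. S100A11 stood at 0.13 and -0.44, then -0.18 and 0.11. On S100A6 probes 2 and 3 and on S100A11 the sign followed the dye of the co-culture on all 4 arrays, which held for 3 of 13 member probes and 18.2% of all. The brightest S100A6 probe stood at -0.46 and -0.51 where co-culture was in Cy3 and at 0.06 and 0.12 where it was in Cy5.

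**Figure D4:**
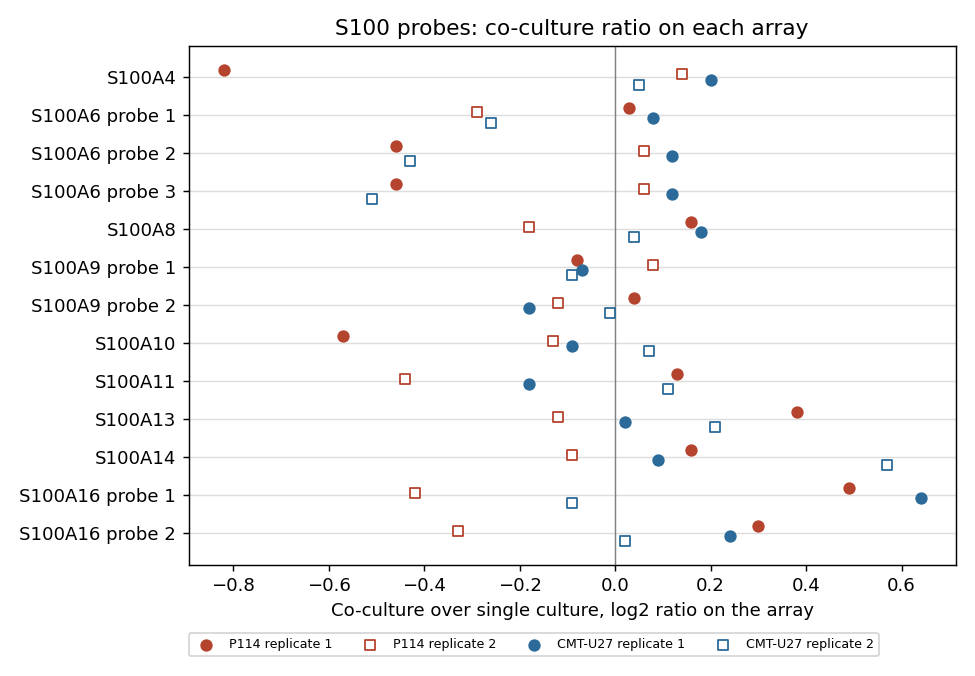
Log2 ratio of co-culture over single culture (x axis) for each S100 probe (y axis) on each of the 4 arrays, with P114 in red, CMT-U27 in blue, circles for replicate 1 and squares for replicate 2. The marks of P114 fall on both sides of 0 for every probe but that of S100A10, while those of CMT-U27 share a side on 7 of 13 probes. The marks run from -0.82 for S100A4 on P114 replicate 1 to 0.64 for S100A16 probe 1 on CMT-U27 replicate 1.

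These ratios are relative to genes of the same brightness, because loess removes any trend with brightness. When arrays were centred on their median instead, all tested probes had a median of 0.68 in CMT-U27 and 0.16 in P114. Member probes then stood at 0.15 to 1.62 in CMT-U27, which is -0.53 to 0.94 relative to that median, and 8 of the 9 genes were called there, as were 60.4% of all tested probes, nearly all of them higher (limma). In P114 they stood at -0.15 to 0.54, with 0 genes called, against 0.0174% of probes. The P114 means of S100A4 and S100A10 turned from -0.34 to 0.13 and from -0.35 to 0.09, that of S100A11 from -0.15 to 0.29, and those of S100A6 probes 1, 2 and 3 rose above 0, to 0.33, 0.27 and 0.27. The macrophage markers that could be tested did not rise with co-culture after loess. Of 23 listed, 7 were tested, with 0 called and a median ratio of -0.01 in P114 and 0.01 in CMT-U27. CSF1R, PTPRC, ITGAM, AIF1 and SPI1 did not pass the filter on dim probes. Of the 23, 5 were above background in single culture and 6 in co-culture on P114 replicate 2. On CMT-U27 replicates 1 and 2 the counts were 2 and 4 in single culture, and 5 on each in co-culture. Both channels of P114 replicate 1 had 22. Whether these counts differ between the cultures was not tested. The mean level of the list was 7.21 to 7.48 in P114 and 7.12 to 7.14 in CMT-U27.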

How the data were processed

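RNA was measured on 4 two-colour Agilent arrays (array design 021193), 2 per line. Per the file headers, the deposited files give for every spot a linear intensity in each dye, a local background and flags, and a log10 ratio of Cy5 over Cy3 that Agilent Feature Extraction computed. Its version is 10.10.1.1 in those headers and 10.7.3.1 in the submitters' processing notes. The authors' value table repeated that log10 ratio (largest gap 0, median 0 per array, not turned for the dye) and served as an alternative. Each array held 45220 spots, 1417 of them controls. Precision is limited by the number of arrays.

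Mean intensities were corrected with normexp (offset 50) and loess normalized, with controls at weight 0, and marked spots were left out. Log2 ratios were fitted with limma 3.58.1 in R 4.3.3, a coefficient per line and a dye term (1 residual and 2.76 prior degrees of freedom). Lines were compared after Aquantile normalization in a separate-channel fit with an intraspot correlation of 0.937 (3 residual and 2.69 prior degrees of freedom). Fits ran on all tested probes and were tested on simulated data. Symbols were matched to the RefSeq table of assembly UU_Cfam_GSD_1.0 for names only, and all 10 were found. The 9 genes were shown by all probes and counted by the brightest.

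The members, lists and tests were chosen with earlier results of these data known. From each list up to 4 called genes with the largest line difference in co-culture were named, and always ANXA2. For the member of widest range the 3 nearest genes by distance were named. The alternatives were the scanner software's processed signals, the value table, no background correction, median centring, no or quantile normalization between arrays, no filter, a filter on every channel, marked spots kept, no dye term, the probe of median rank per gene and each array left out. A fit on the channels of 1 culture alone was added after seeing the data. Figures were drawn with Python and matplotlib.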

Additional observations from a re-analysis of the deposited data

How the results depend on the processing

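Ratios paired both cultures on each array. Beyond that, no paired analysis was possible because the labels give no replicate numbers. The directions of S100A4, S100A8 and S100A14 between the lines held under all 13 alternatives in both cultures: S100A4 lay between 5.99 and 6.42 in single culture and 5.49 and 6.10 in co-culture, S100A8 between -3.49 and -2.87 and between -3.54 and -2.89, and S100A14 between -1.48 and -1.24 and between -1.74 and -1.42. The calls of these genes were lost with no normalization between arrays. In single culture that of S100A14 was also lost with the scanner software's processed signals (adjusted p = 0.059, limma). Such calls describe the processing and are no support for the choice of genes, which used the single-culture differences and the ratios. The number of probes called between the lines was 4348 in single culture and 4389 in co-culture. It was 2119 and 2112 with processed signals, 0 and 0 without normalization between arrays (0 member genes in place of 3), 9380 and 9488 without the dye term, and 10895 and 8012 with the channels of 1 culture alone. With processed signals, 1211 were higher and 908 lower in single culture, against 2044 and 2304, and 1235 higher and 877 lower in co-culture, against 1928 and 2461. Leaving out an array gave 5788 to 17427 calls and 3 to 6 member genes in single culture, and 5901 to 17022 calls and 3 to 7 member genes in co-culture. The most came without P114 replicate 2, followed by P114 replicate 1. Those fits used the intraspot correlation of all 4 arrays and assume that a lone array varies like the others. S100A9 probe 2 ran from -0.74 to 0.39 in single culture and from -0.68 to 0.44 in co-culture over the arrays left out. In co-culture S100A6 probes 2 and 3 turned to 0.05 and 0.03 with processed signals, and probes 1, 2 and 3 to 0.06, 0.15 and 0.10 without normalization between arrays.

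For the co-culture ratio, median centring gave 5 calls in P114, 17343 of 28692 in CMT-U27 (17025 higher) and 12448 for the difference between lines, with 8 member genes in each of the latter, against 0. It turned S100A6 probes 1, 2 and 3 to 1.57, 1.56 and 1.53, S100A10 to 1.52 and S100A11 to 1.54 in CMT-U27. In the difference, CMT-U27 minus P114, it turned S100A13 to 0.87. No background correction gave 12 calls in CMT-U27 and 1 for the difference, and the filter on every channel 1 in CMT-U27. Leaving out an array gave 0 to 64 calls in P114, 0 to 17 in CMT-U27 and 0 to 61 for the difference, the most without P114 replicate 2, CMT-U27 replicate 1 and P114 replicate 2, in turn. In the fits without an array, the line that lost it kept the plain ratio of its other array, with no correction for dye. S100A6 probe 3, for example, stood at 0.06 in P114 without replicate 1, which is the ratio of replicate 2 itself. For that line, and for the difference, co-culture and dye cannot be told apart, so these counts are not read as a response. The cause of the shifts between these settings was not tested. S100A9 probes were left out by the filter on every channel.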

Other observations

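Outside the rule for the genes above, 2 probes carried the protein name of S100A6 without its symbol. They differed between the lines by -0.17 and -0.28 log2 units in single culture and by -0.17 and -0.29 in co-culture, close to the 3 probes with the symbol. S100P and its binding protein S100PBP, both outside the chromosome 7 stretch, differed by -0.02 (adjusted p = 0.964, limma) and 0.06 (adjusted p = 0.839, limma) in co-culture.

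Among receptors and enzymes of the partner list that were called but not among its largest, TLR4 was lower in P114 by -0.95 log2 units (adjusted p = 0.011, limma) and PLG, plasminogen, by -0.59 (adjusted p = 0.0303, limma). Both were well above background on 1 of the 2 P114 arrays. They passed the filter on dim probes only through CMT-U27, so their being lower in P114 is partly set by that filter. AGER differed by 0.08 (adjusted p = 0.792, limma). CD86, a co-stimulatory molecule and the macrophage-list gene that was called, was at least 4.01-fold higher in P114 in co-culture (adjusted p = 0.000706, limma). It was not well above background on either CMT-U27 array in either culture, and passed the filter on dim probes only through P114. The fold is therefore a bound, set against the higher of its own signal and the lowest signal well above background on each CMT-U27 array. Its co-culture ratio was -0.35 in P114. TLR4, PLG, AGER and CD86 were picked out after their values were seen.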
